A study of Homo sapiens with 36 samples.

Results

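The Mir-15 and Mir-103 families were followed through small RNA libraries of HEK293T cells in which tagged AGO2, wild type or mutated, had been expressed. The members are the rows of the deposited miRNA table whose MirGeneDB name begins with Hsa-Mir-15- or Hsa-Mir-103- and carries no closing asterisk, which marks a passenger strand. There were 7 such rows among 135. Since 2 pairs of them held identical values in every library, 5 distinct members remained of 124 distinct rows in all, 3 in the Mir-15 family and 2 in the Mir-103 family.

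HEK293T cells are an established line of human embryonic kidney origin that takes up plasmids easily. The cells received Flag/HA-tagged WT-AGO2, F182del, N359H, G604R or D619N, or the Flag/HA-empty vector as the control without tagged AGO2. The methods add a plasmid for green fluorescent protein to the AGO2 vectors. The tagged protein was made from a plasmid, and the methods do not describe removal of the cells' own AGO2 for this experiment, so the inputs hold miRNAs of all Argonaute proteins. Small RNA was sequenced from the cleared lysate (input) and from the material precipitated through the HA tag (IP), with 3 replicates of each of the 12 conditions, or 36 libraries, and the comparisons ask whether the variants bind a miRNA differently from WT-AGO2. Nothing in the labels says that replicates came from separate cultures, so p-values measure the spread between these libraries only.

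miRNAs guide Argonaute proteins to messenger RNAs, mainly by pairing of the seed, the short stretch just behind the 5′ end. The Mir-15 family, with miR-15a, miR-15b and miR-16, is known for repressing cell cycle and survival genes such as cyclins and BCL2, and the locus of miR-15a and miR-16 is often deleted in chronic lymphocytic leukaemia. The Mir-103 family, miR-103a and miR-107, is encoded within pantothenate kinase genes and is known for targeting DICER1 and regulators of insulin signalling. Mir-15 guides come from the 5p arm of the hairpin and Mir-103 guides from the 3p arm.

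The mature sequences are shown because both families carry the same run of 7 bases, placed 1 base apart. They are RefSeq entries on GRCh38.p14, and all 7 rows were matched by miRNA name. No file pairs MirGeneDB with RefSeq names, so the match rests on nomenclature and, for the rows with identical values, on those being genes with the same mature sequence. Capitals mark the seed, bases 2 to 8.
miR-16-5p: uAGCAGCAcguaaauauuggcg
miR-15a-5p: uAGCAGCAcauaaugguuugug
miR-15b-5p: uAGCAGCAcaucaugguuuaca
miR-103a-3p: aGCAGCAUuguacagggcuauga
miR-107: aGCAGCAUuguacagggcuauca

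The Mir-15 seed AGCAGCA occupies bases 2 to 8 of miR-16, miR-15a and miR-15b, and the same 7 letters occupy bases 1 to 7 of miR-103a and miR-107, whose seed is therefore GCAGCAU. Of 2370 distinct mature miRNAs in the RefSeq table, 7 (0.295%) hold AGCAGCA at bases 2 to 8 and 2 (0.0844%) hold it at bases 1 to 7. miR-15a and miR-15b differ at 4 of 22 bases, whereas miR-16 differs from miR-15a at 6 and from miR-15b at 8. miR-103a and miR-107 differ by the single substitution G22C, counted from 1 at the 5′ end of miR-103a, which leaves 1 base behind it. Reads that lack the last 2 or more bases cannot be assigned between these 2 miRNAs, and how such reads were shared is not described, so their values are uncertain against each other.

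All 7 hairpins lie within introns on GRCh38. MIR15A (mature sequence at chr13:50049167-50049188, minus strand) and MIR16-1 (chr13:50049027-50049048, minus strand) have hairpins 57 bases apart in an intron of the non-coding gene DLEU2. MIR15B (chr3:160404607-160404628, plus strand) and MIR16-2 (chr3:160404754-160404775, plus strand) have hairpins 59 bases apart in an intron of SMC4, a condensin subunit gene, with AC079594.2 annotated on the opposite strand. MIR103A1 (chr5:168560904-168560926, minus strand) lies in PANK3, MIR103A2 (chr20:3917541-3917563, plus strand) in PANK2 and MIR107 (chr10:89592756-89592778, minus strand) in PANK1. The miR-16 row could thus come from 2 loci, each beside 1 of the other Mir-15 members, and the miR-103a row from 2 others.

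Depth limited the rarer members. The deposited values are RPM, reads normalised to the total reads of a library, and all fell on whole steps within a library, from which reads were inferred. The 135 rows together held 1150 to 30793 mature miRNA reads in the 15 AGO2 IP libraries, 446 to 12040 in the 18 inputs and 174 to 202 in the 3 empty vector IPs. Replicate 1 of the N359H, G604R and D619N inputs stood apart, with 1.42%, 4.75% and 4.77% of reads on mature miRNAs against 0.231% to 0.571% in the other inputs. Shares below are percent of mature miRNA reads, and their Wilson 95% intervals cover counting error only.

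miR-16 was the dominant member and held a nearly fixed share of the miRNA pool. In the WT-AGO2 IP it had 1318, 709.0 and 354.2 RPM, and in the WT input 90.6, 30.6 and 30.3 RPM. Relative to mature miRNA reads these values came to 1.20%, 1.14% and 1.59% in IP and 1.59%, 1.29% and 1.31% in the input, so that the 2 fractions overlapped although the RPM differed widely. Across the 15 AGO2 IP libraries the share had a lowest value of 1.06%, a median of 1.41% and a highest value of 1.77%, and across the 18 inputs these were 1.08%, 1.44% and 2.08%. miR-16 ranked between 9 and 16 among the 124 distinct rows in each AGO2 IP library.

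miR-103a was the second member in abundance. It had 275.1, 184.5 and 84.0 RPM in the WT-AGO2 IP and 13.4, 4.30 and 7.57 RPM in the WT input. Its share was 0.250%, 0.296% and 0.377% in the WT IP, on 77, 19 and 23 reads, and 0.234%, 0.182% and 0.328% in the WT input. Over the 15 AGO2 IP libraries it ran from 0.113% to 0.377% with a median of 0.250%, and 1 of the 18 inputs, the shallow replicate 1 of G604R, listed it at 0.

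The remaining members were rare and often listed at 0. miR-107 was above 0 in 11 of 15 AGO2 IP libraries and in 15 of 18 inputs, with medians of 0.0318% and 0.0819%. miR-15a was above 0 in 8 of 15 IP libraries and in 16 of 18 inputs, with medians of 0.0290% and 0.128%. miR-15b was above 0 in 6 of 15 IP libraries and in 14 of 18 inputs, with a median of 0% in IP and 0.123% in the input. Over 36 libraries no value of miR-15a or miR-15b equalled 1 read, while miR-107 had 7 such values, so a listed 0 may not mean that no read was seen.

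**Figure D1:**
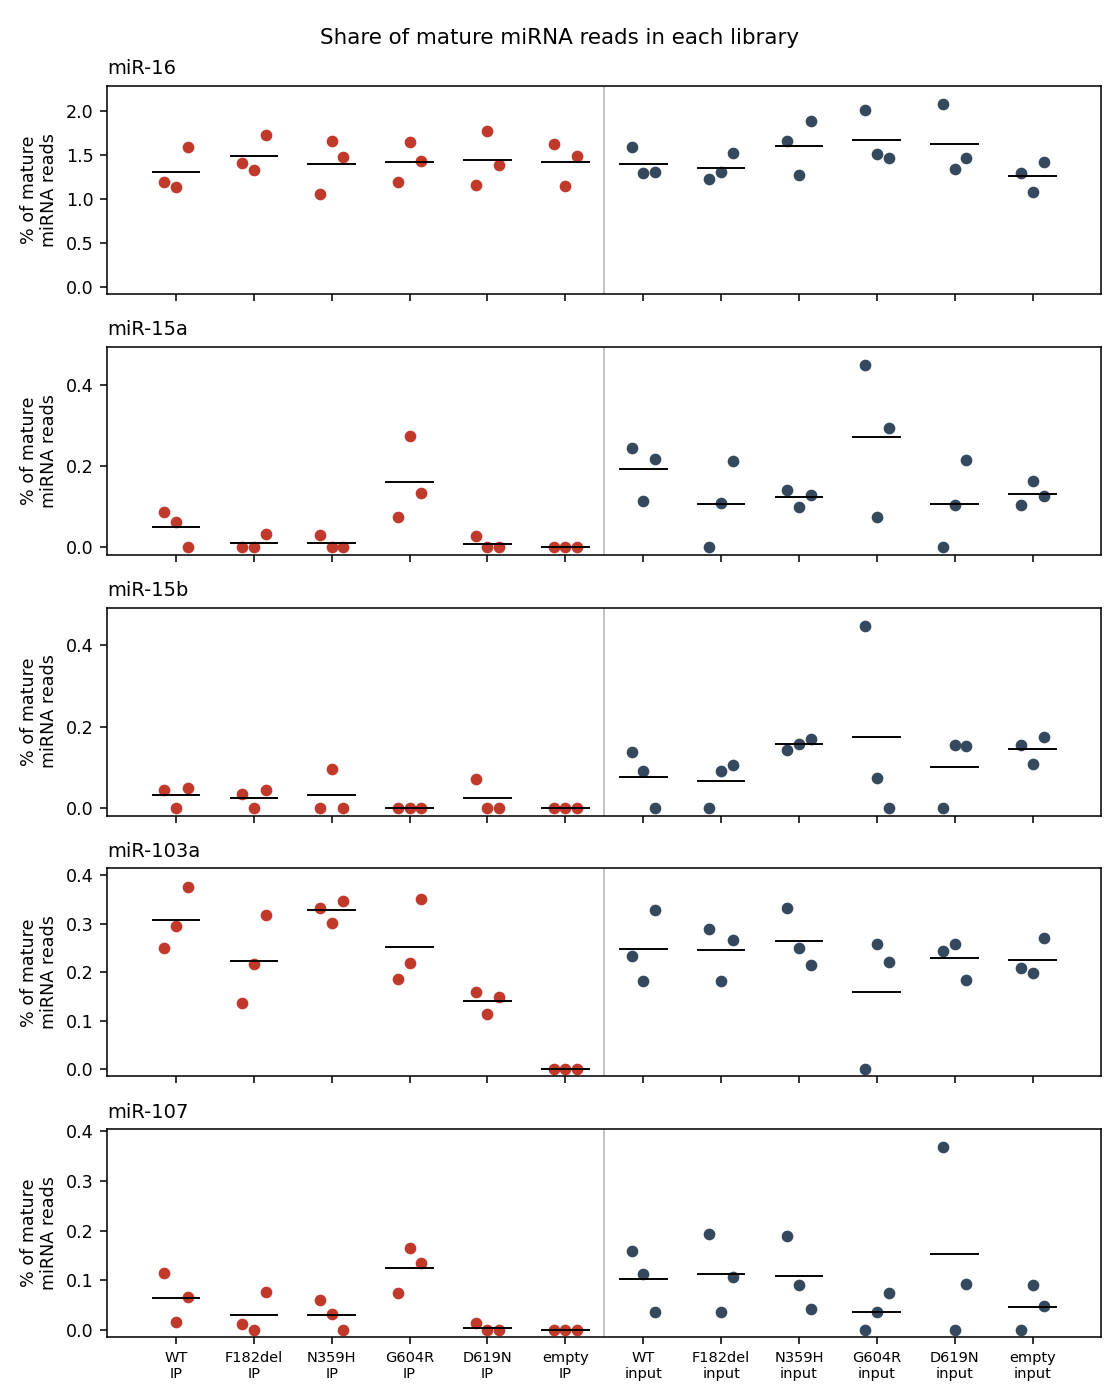
Share of mature miRNA reads (%, vertical axis, a separate scale in each panel) of the 5 members in each of the 36 libraries. Points are libraries in replicate order, black lines are group means, red is IP and dark blue is input. miR-16 stays between 1.06% and 2.08% in every library, while miR-15a, miR-15b and miR-107 lie lower in most IP groups than in the inputs.

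In the empty vector IP only miR-16 was listed. It had 3, 2 and 3 reads, which gave shares of 1.63%, 1.15% and 1.49%, close to its shares elsewhere. The other 4 members were at 0 of 560 mature miRNA reads, which allows a share of up to 0.536% if a listed 0 means no read. That limit lies above the share of miR-103a in every AGO2 IP library, so its share could not be told apart from that in the AGO2 IPs at this depth. In RPM the mean of miR-103a was at least 1.62-fold lower in the empty vector IP than in the WT IP, counted against 3 reads per library. Without replicate 1 of the WT IP this limit was 1.20-fold. Replicate 3 of the WT IP, at 84.0 RPM, lay under the mean of 112 RPM that 3 reads were worth.

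Together the 3 Mir-15 members held 1.48% ± 0.249 (SD, n = 15) of mature miRNA reads in the AGO2 IPs, 1.76% ± 0.382 (SD, n = 18) in the inputs and 1.42% ± 0.247 (SD, n = 3) in the empty vector IPs. The Mir-103 members held 0.301% ± 0.117 (SD, n = 15) in the AGO2 IPs and 0.322% ± 0.133 (SD, n = 18) in the inputs. For the ratio of the families identical rows were counted once. How reads matching several genes were counted is not explained, so the level of the ratio is uncertain. Mir-103 reads per 100 Mir-15 reads were 26.8 ± 0.702 (SD, n = 3) in the WT IP, 16.1 ± 5.83 in F182del, 26.2 ± 8.83 in N359H, 23.9 ± 6.21 in G604R and 10.3 ± 3.72 in D619N. The lowest WT library stood at 26.0, above the highest of F182del (21.8) and of D619N (13.8). N359H and G604R overlapped with WT. In the D619N IP 2 of the 3 libraries held only 3 Mir-103 reads each. WT IP replicates 2 and 3 held 20 and 27, so the small WT SD is uncertain. Among single miRNAs, 22.6% of those tested in F182del and 37.4% in D619N also had no overlap with WT in scaled RPM. In the inputs the ratio ran from 19.7 to 23.8 in WT, and F182del (14.5 to 39.5), N359H and D619N overlapped with it. The G604R inputs did not (0 to 17.8), with the shallow replicate 1 at 0. These sums over chosen members were not tested.

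The first comparison asked whether the variants carried the members differently from WT-AGO2 in IP. The RPM were first scaled by the median of ratios over the miRNAs above 0 in every library of a comparison. This sets the typical one of those miRNAs equal, not that of all tested miRNAs. They numbered 83 for F182del, 61 for N359H, 65 for G604R and 58 for D619N. After scaling, log2(RPM + 1) was fitted with limma. A call needed a change of more than 1 on the log2 scale with a Benjamini-Hochberg adjusted p under 0.05. None of the 5 members was called by limma in any of the 4 variants. Of all tested miRNAs 6.02% of 133 were called for F182del, 0% of 123 for N359H, 4.88% of 123 for G604R and 14.6% of 123 for D619N. At an unadjusted p below 0.05 there were 3 of 20 values, miR-15b in G604R and both Mir-103 members in D619N, beside 21.1%, 4.88%, 12.2% and 35% of all tested miRNAs in F182del, N359H, G604R and D619N.

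For miR-16 the log2 fold changes against WT were 0.25 (SE 0.24) in F182del, 0.16 (SE 0.24) in N359H, -0.03 (SE 0.21) in G604R and 0.18 (SE 0.21) in D619N. Their 95% intervals together spanned -0.50 to 0.76, which leaves differences of about that size undetected, and with RPM as deposited the values were -0.55, 0.33, -1.14 and 0.73, none called. After scaling, the median of all tested miRNAs was 0.01, -0.56, -0.34 and -1.18 in the same order.

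The scaled values of miR-103a did not overlap with WT in 1 variant, D619N, as was also so for 37.4% of all tested miRNAs there. In the D619N IP its shares were 0.160%, 0.113% and 0.149%, on 11, 3 and 3 reads, below each of the WT shares of 0.250%, 0.296% and 0.377%. It was the only member whose scaled values did not overlap with WT in any variant, against 22.6%, 9.76%, 19.5% and 37.4% of all tested miRNAs in F182del, N359H, G604R and D619N, whereas the RPM as deposited overlapped at 192.2, 41.0 and 180.3 against 275.1, 184.5 and 84.0. The log2 fold change was -1.07 (SE 0.34, 95% interval -1.89 to -0.25, adjusted p = 0.0971), lower in 3 of 3 libraries and not called, and the median of all tested miRNAs in that comparison was -1.18. In F182del, N359H and G604R the log2 fold changes of miR-103a were -0.47, 0.18 and -0.47, with SE of 0.36, 0.36 and 0.37. With RPM as deposited miR-103a had -1.26, 0.35, -1.57 and -0.52 in F182del, N359H, G604R and D619N, none called, so the order of the variants depended on the scaling.

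miR-107 had 1, 0 and 0 reads in the D619N IP against 35, 1 and 4 in the WT IP. D619N was lower in the fit with an adjusted p of 0.123, and the groups overlapped. Without replicate 1 of D619N, the library with that 1 read, miR-107 was called (limma adjusted p = 0.0259), so that library decided the call. In that fit 23.6% of all tested miRNAs were called, against 14.6% with all libraries. In the G604R IP miR-107 had 2, 3 and 5 reads, or shares of 0.0747%, 0.165% and 0.135%, against 0.114%, 0.0156% and 0.0655% in WT, which overlap.

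miR-15a and miR-15b went in different directions in the G604R IP without a call. miR-15a had 2, 5 and 5 reads there, with shares of 0.0747%, 0.275% and 0.135%, against 27, 4 and 0 reads and 0.0877%, 0.0622% and 0% in WT. Its log2 fold change was 2.33 (SE 1.48, adjusted p = 0.397), from 0.72 without replicate 3 of the WT IP to 3.10 without its replicate 1, and the groups overlapped. miR-15b was at 0 of 8209 mature miRNA reads in the 3 G604R IP libraries, against 14, 0 and 3 reads in WT. This allows a share of up to 0.0365% if a listed 0 means no read. The WT mean of 20.3 RPM lies under the 26.4 RPM that 3 reads were worth in G604R, so no fold is given, and the adjusted p was 0.318. Without replicate 2 of the WT IP, where miR-15b was also at 0, miR-15b was called (limma adjusted p = 0.00177), beside 7.44% of all tested miRNAs.

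**Figure D2:**
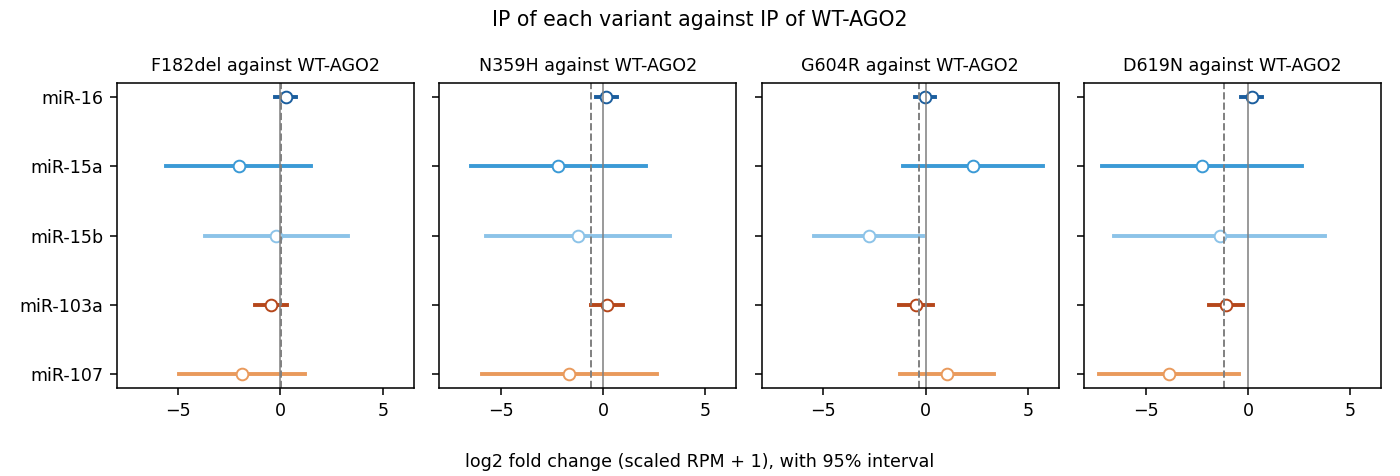
Log2 fold change of each member in the IP of a variant over the IP of WT-AGO2 (horizontal axis, scaled RPM + 1), with 95% intervals from limma and 3 libraries a group. Open points were not called, the solid line is 0 and the dashed line is the median of all tested miRNAs, and values of members with libraries at 0 depend on the pseudocount. miR-16 lies within 0.25 of 0 in every variant, and miR-103a in D619N lies at -1.07 near the dashed line at -1.18.

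In the inputs none of the 5 members was called by limma for any variant or the empty vector, and none of the 25 values had an unadjusted p below 0.05. Of all tested miRNAs 0% were called in each of these 5 comparisons, over 105 to 114 tested. No member was without overlap in the inputs, beside 7.89%, 7.55%, 8.49%, 6.67% and 9.52% of all tested miRNAs for F182del, N359H, G604R, D619N and the empty vector. The log2 fold changes of miR-16 in the inputs lay between -0.12 and 0.07. The interaction, which asks whether the IP over input difference of a variant differs from that of WT-AGO2, called none of the 5 members in any variant and had none of 20 values at an unadjusted p below 0.05, while it called 0.741% of 135 tested miRNAs for F182del, 0% of 130 for N359H, 1.54% of 130 for G604R and 3.94% of 127 for D619N.

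The RPM of miR-16 was set beside that of the whole miRNA pool from input to IP. miR-16 is part of this pool, and both ratios rest on the same library totals. Their closeness therefore only restates that its share was similar in IP and input. Apart from miR-103a below, no other miRNA was compared in this way. The IP over input ratio of the RPM of miR-16 was 14.6, 23.2 and 11.7 in the WT pairs of the same number, beside 19.3, 26.4 and 9.65 for the sum of all mature miRNAs. In G604R these ratios were 0.347, 8.88 and 8.48 for miR-16 and 0.586, 8.15 and 8.74 for all, the first of each against the shallow input. With the empty vector they were 4.35, 1.24 and 2.79 for miR-16 and 3.46, 1.17 and 2.66 for all. The ratio of miR-103a was 20.6, 42.9 and 11.1 in WT, above that of all mature miRNAs in 3 of 3 pairs. It was above it in 3 of 3 pairs in N359H, in 2 of 3 in F182del and in 1 of 2 in G604R. In D619N it was 1.65, 5.22 and 27.5 against 2.52, 11.9 and 33.8, on 11, 3 and 3 reads in IP and 2, 5 and 6 in the input, the first of them shallow, and the interaction of miR-103a in D619N had an adjusted p of 0.471 (limma). How many of all miRNAs lay above the sum in these pairs was not counted. In the scaled WT fit of IP against input, miR-103a had a log2 fold change of 0.55. That was rank 68.5 from the lowest of 126 tested miRNAs, whose median was 0.28.

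**Figure D3:**
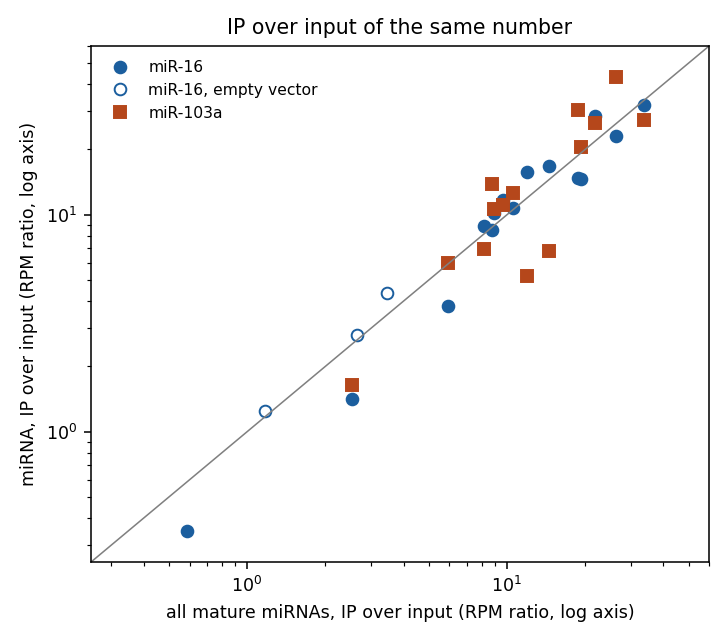
IP over input ratio of the RPM of miR-16 and miR-103a (vertical, log axis) against the same ratio for the sum of all mature miRNAs (horizontal, log axis), one point for each pair of the same number in which both fractions were above 0. Filled points are AGO2 constructs, open points the empty vector, and the line marks equal ratios. miR-16 lies near the line from 0.586-fold to 33.8-fold for all mature miRNAs. Distance from the line reflects only the change in share of mature miRNA reads, since both axes use the same library totals.

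After scaling, IP and input were compared within each construct, which asks whether a member is over- or underrepresented among the immunoprecipitated miRNAs. None of the 5 members was called by limma in any construct, against 11.9% of all tested miRNAs in WT, 23.5% in F182del, 11.7% in N359H, 8.57% in G604R and 17.5% in D619N. At an unadjusted p below 0.05 there were 2 of 25 values, miR-15a and miR-15b in N359H, beside 34.1%, 34.8%, 32.5%, 30.5% and 33% of all tested miRNAs in the order WT, F182del, N359H, G604R and D619N. IP and input did not overlap for 2 of 5 members in WT, 1 in F182del, 3 in N359H, 1 in G604R and 0 in D619N, beside 43.7%, 37.9%, 40%, 35.2% and 34% of all tested miRNAs. The log2 fold changes of miR-16 were 0.13, 0.49, -0.01, 0.085 and 0.30 in the order WT, F182del, N359H, G604R and D619N, with SE of 0.16 to 0.26.

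After scaling, miR-15a lay lower in IP than in input in each construct, and with RPM as deposited its sign changed in WT, G604R and D619N. In WT its shares were 0.0877%, 0.0622% and 0% in IP and 0.245%, 0.113% and 0.218% in the input, and these did not overlap. In N359H they were 0.0303%, 0% and 0% in IP and 0.142%, 0.0997% and 0.129% in the input, also without overlap. The share was lower in the IP than in the input of the same number in 12 of 15 pairs. It was lower in 11 for miR-15b, 10 for miR-107, 8 for miR-16 and 5 for miR-103a, and all miRNAs were not counted. The fitted log2 fold changes of miR-15a were -2.15, -1.87, -3.40, -0.29 and -2.31, with limma adjusted p of 0.139 to 0.794. Leaving out 1 library moved them to between -2.64 and -0.98 in WT (the latter without IP replicate 3), -3.41 and -1.44 in F182del, -3.92 and -2.64 in N359H, -0.98 and 0.11 in G604R, and -3.82 (without input replicate 1) and -1.62 in D619N. Leaving out replicate 1 of the F182del input, where miR-15a was at 0, gave a call in F182del (limma adjusted p = 0.0324), beside 24.6% of all tested miRNAs.

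miR-15b had the same sign in each construct after scaling, and with RPM as deposited its sign changed in WT, F182del and D619N. In N359H its shares were 0%, 0.0955% and 0% in IP and 0.142%, 0.158% and 0.171% in the input, without overlap, and it was lower in the IP of 11 of 15 pairs. The fitted log2 fold changes were -0.62, -0.57, -3.27 and -1.93 in WT, F182del, N359H and D619N, and in G604R, where the IP was at 0 throughout, the mean of 3 reads per library was 26.4 RPM. Single libraries decided calls of miR-15b. It was called in N359H without IP replicate 2 (limma adjusted p = 0.0485), beside 10.2% of all tested miRNAs. In G604R it was called without input replicate 3 (limma adjusted p = 0.0426), beside 7.92%.

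Because of these shared signs, IP and input were also compared over the 5 AGO2 constructs together, a comparison chosen after the values above were seen and therefore not independent of them. In it 34.8% of 135 tested miRNAs were called (0.741% had no overlap), 28 higher and 19 lower in IP, and 2 of the 5 members were among those called lower. miR-15a had a log2 fold change of -1.93 (SE 0.59, 95% interval -3.13 to -0.72, adjusted p = 0.00834) and miR-15b of -1.78 (SE 0.68, 95% interval -3.17 to -0.39, adjusted p = 0.0336). miR-16 had 0.22 (SE 0.10, adjusted p = 0.0620), miR-103a 0.60 (SE 0.36, adjusted p = 0.169) and miR-107 -0.85 (SE 0.62, adjusted p = 0.267), none called, and the median of all tested miRNAs was 0.29.

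The call of miR-15b was not stable. IP and input of a number and construct were taken to come from 1 lysate. With the replicate block, each of the 15 lysates as a factor, the limma adjusted p was 0.0582 for miR-15b and 0.0142 for miR-15a. Leaving out each of 30 libraries in turn ended the call of miR-15b in 10 cases, with adjusted p from 0.0507 to 0.0608. These were IP replicate 2 of WT, IP replicate 2 of F182del, IP replicates 1 and 3 of N359H, input replicates 1 and 2 of G604R, and IP and input replicates 2 and 3 of D619N. The call of miR-15a held in all 30, with adjusted p from 0.00224 to 0.0174, but both lost it when N359H was left out (adjusted p of 0.0521 and 0.125) and when RPM were used as deposited, where miR-15a had a log2 fold change of 0.065 and miR-15b of -0.22. A pseudocount of 10 RPM ended both calls by their size (-0.82 and -0.71). The call of miR-15b ended as well without G604R (adjusted p = 0.118), with a pseudocount of 0.1 RPM (0.0637) and with shares of mature miRNA reads (0.0721). Without G604R miR-107 was called lower in its place, beside 34.1% of all tested miRNAs. Depth differed between fractions, with a median of 6105 mature miRNA reads in IP and 2746 in the AGO2 inputs, and IP was the deeper library in 10 of 15 pairs.

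**Figure D4:**
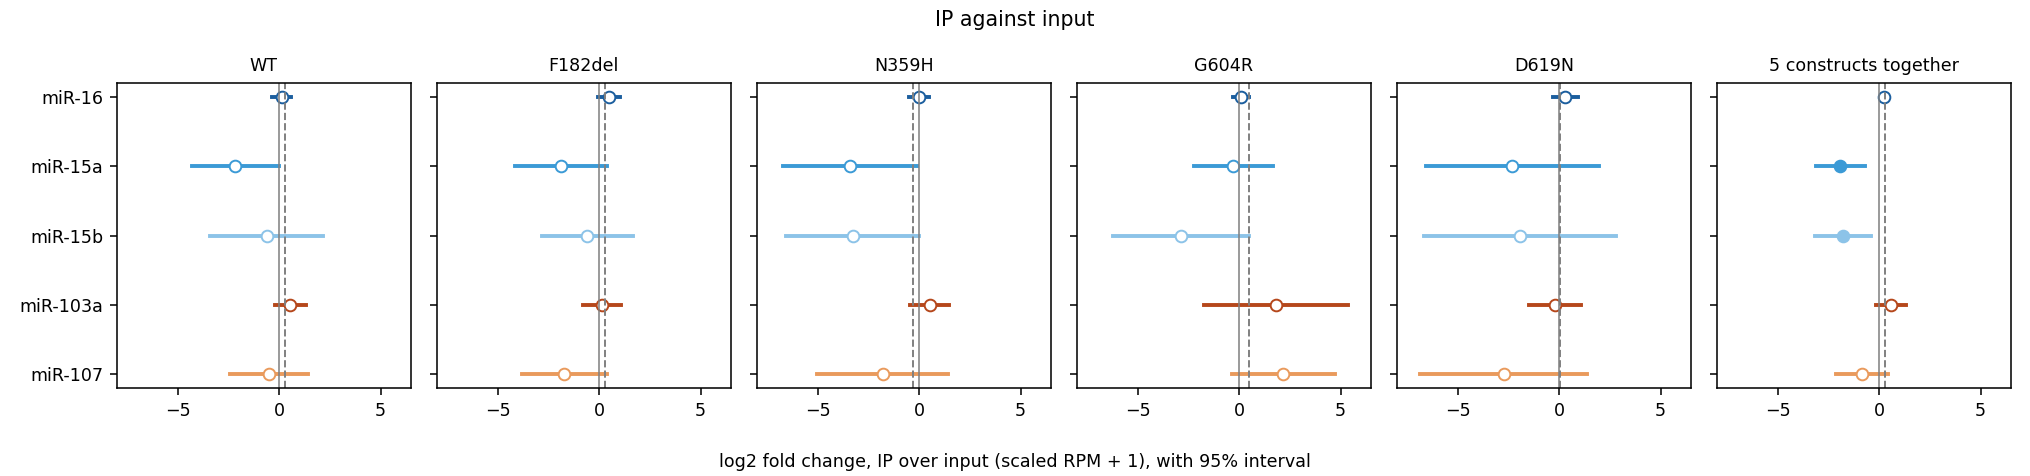
Log2 fold change of each member in IP over input (horizontal axis, scaled RPM + 1) within each AGO2 construct and over the 5 together, with 95% intervals from limma. Filled points were called, the solid line is 0 and the dashed line is the median of all tested miRNAs. After this scaling miR-15a and miR-15b lie below 0 in every panel and are called in the last one, at -1.93 and -1.78, while with RPM as deposited miR-15a has 0.065 there.

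The proportions within the Mir-15 family can be read without scaling, as reads per 100 miR-16 reads of the same libraries. The miR-16 reads are those of 1 of its 2 identical rows. How reads matching both miR-16 genes were counted is not explained, so the level of these values is uncertain. The same row was used in IP and input. miR-15a had 5.75 in IP and 14.0 in input for WT, 1.24 and 8.38 for F182del, 1.05 and 7.76 for N359H, 10.4 and 11.4 for G604R, and 1.29 and 9.89 for D619N. miR-15b had 3.15 and 7.02 for WT, 2.27 and 5.39 for F182del, 3.14 and 11.2 for N359H, 0 and 5.71 for G604R, and 3.23 and 8.79 for D619N. In the empty vector input the values were 10.9 for miR-15a, within the range of the other inputs, and 11.5 for miR-15b, above them. Summed over 3 libraries, both stood lower against miR-16 in IP than in input for each construct. For miR-15a in G604R this rested on single libraries, since leaving out 1 of 3 moved the IP value between 8.24 and 12.05 and the input value between 8.0 (without replicate 3) and 20.7 (without replicate 2). These ratios pool 3 libraries and were not tested.

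**Figure D5:**
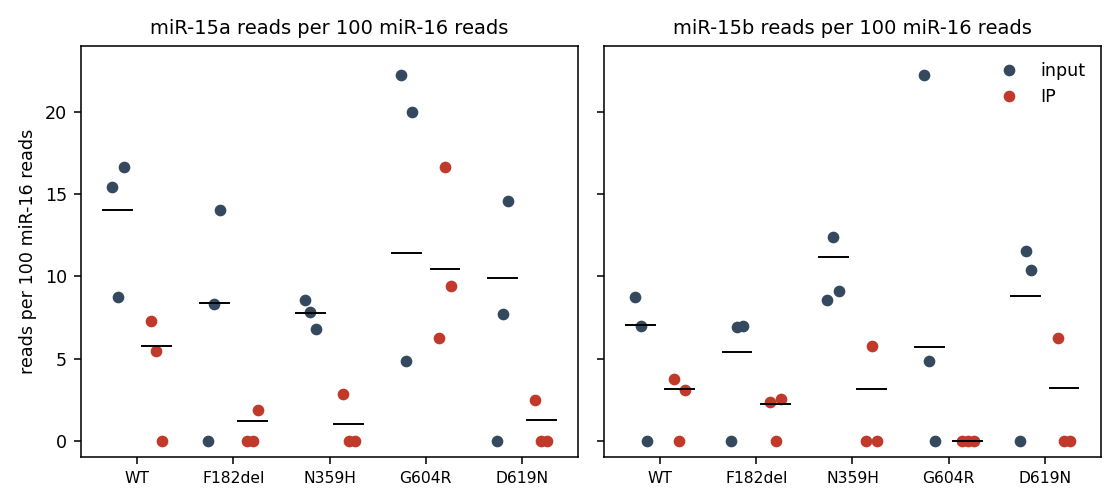
Reads of miR-15a (left) and miR-15b (right) per 100 miR-16 reads (vertical axis) in each library of the 5 AGO2 constructs. Dark blue points are inputs, red points IPs, and black lines give the value over the summed reads of the 3 libraries. The lines for IP lie below those for input in each construct, by the least for miR-15a in G604R (10.4 against 11.4).

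The table listed 1 passenger strand of these families, that of Hsa-Mir-15-P2b, a miR-16 gene. Hsa-Mir-15-P2b_3p* had 11, 2 and 10 reads in the WT IP and 2, 0 and 0 in the WT input. It was above 0 in 8 of 15 AGO2 IP libraries, with 58 reads in all, and in 3 of 15 AGO2 inputs, with 13 reads in all. In IP it thus had about as many reads as miR-15a (53) and more than miR-15b (39). The 3 empty vector IPs listed it at 0.

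Beside these families, the Let-7 rows had 0 calls of 10 in each variant in IP, the Mir-17 rows 0 of 6 or 7, and the Mir-19 and Mir-92 rows 0 calls except in D619N, where 1 was higher and 1 lower of 6. In D619N the median log2 fold change was -1.39 over the 5 members, -0.14 over Let-7, -2.17 over Mir-17 and 0.26 over Mir-19 and Mir-92. In the comparison of IP with input over the 5 constructs together, the Let-7 rows had 1 call higher and 3 lower of 10, the Mir-17 rows 4 lower of 7, and the Mir-19 and Mir-92 rows 1 lower of 7. Their medians were -0.61, -1.64 and 0.17, against -0.85 for the 5 members.

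The profile of miR-16 over the 10 group means of the AGO2 constructs was compared with those of 29 other miRNA rows above 0 in all 30 libraries. The nearest were Hsa-Mir-10-P1c-v1_5p, Hsa-Mir-378_3p and Hsa-Mir-28-P2_5p, with mean absolute differences of 0.158, 0.170 and 0.201 on the centred log2 scale and a median of 0.336 over the 29. For miR-103a the nearest were Hsa-Mir-92-P1d_3p, Hsa-Let-7-P2b1_5p and Hsa-Let-7-P2a3_5p, at 0.350, 0.378 and 0.379 against a median of 0.520. These libraries share their scaling, and the likeness is a description only.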

How the data were processed

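Small RNA libraries of HEK293T lysates and anti-HA immunoprecipitates were processed by the authors with sRNAbench and the MirGeneDB annotation, and RPM relative to the total reads of each library were deposited. The labels name GRCh38. The terms minExpr1 and RCadj attached to the values are not explained. Values above 0 were whole multiples of 1 read (100% within a tolerance of 0.01), but low values were too few in each library to establish counts, so reads describe depth only and no count model was fitted.

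A miRNA entered the fit where 2 or more of the 3 libraries of a group reached a scaled RPM of 1. The fit used limma 3.58.1 in R 4.3.3 (lmFit, eBayes with trend) on log2(RPM + 1), after scaling by the median of ratios. limma's p-values were adjusted over all tested miRNAs. The fit was tried on simulated data with 8-fold changes planted in the more abundant miRNAs, of which 90.8% to 100% were recovered in the comparisons tried. These involved only WT and F182del, and the spread between simulated libraries was set beforehand, not taken from these data. The recovery therefore does not carry over to N359H, G604R or D619N, which were not simulated. Smaller changes, or changes in rarer miRNAs, were not simulated. All members were named, and the other miRNAs by likeness of profile. The members and lists were chosen with earlier results of these data known. Shares use the sum over 135 rows, in which identical rows each count. Wilson intervals are at the 95% level and limits at 3 reads. Introns are from GENCODE, sequences from RefSeq.

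The methods take input and IP from the same lysate but do not number them, so same-numbered libraries of a construct were taken to share 1 lysate. Their deviations from the group means correlated between -0.171 (D619N, replicate 3) and 0.398 (WT, replicate 1). In no construct did each of the 3 correlations exceed 0.1. Between constructs, it was checked over the tested rows whether same-numbered libraries deviated from their group means together. Each of the 3 correlations exceeded 0.1 in the F182del IP (0.342, 0.177 and 0.113) and for the inputs of F182del (0.206, 0.284 and 0.237), N359H (0.195, 0.127 and 0.129) and the empty vector (0.336, 0.181 and 0.302).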

Additional observations from a re-analysis of the deposited data

How the results depend on the processing

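Alternatives were other pseudocounts (0.1 and 10), filters, scalings, joint fits, the replicate block and each library left out. Of 1511 alternative values of single members, 1353 kept both sign and side of the threshold, 123 changed sign, 18 gained a call (2 of them with a change of sign) and 20 lost one (1 of them with a change of sign). Signs changed mostly for values near 0, and the causes were not tested. The replicate block, over 95 member values, ended 1 of the 2 calls, that of miR-15b over the 5 constructs together, and gave none. Count tests were not run, since low values were too few in each library to establish counts. Depth limits miR-15a, miR-15b and miR-107, which rest on few reads.

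With RPM as deposited, which keep the enrichment of miRNAs as a whole in IP, 3 members were called in IP against input for WT and 2 each for F182del, N359H and G604R, beside 79.4%, 69.7%, 43% and 26.2% of all tested miRNAs. Over the 5 constructs together it called miR-16 (3.15) and miR-103a (3.55) in place of miR-15a and miR-15b, beside 74.8%. Signs changed as follows. Log2 fold changes in IP were -0.55 for miR-16 (F182del) and -0.016 for miR-107 (G604R). In the inputs they were 0.65 for miR-103a, 0.54 for miR-107 and 0.023 for miR-15a (N359H), and 1.20 for miR-103a and 1.15 for miR-107 (D619N). In IP against input they were 2.75 for miR-107, 1.18 for miR-15a and 1.48 for miR-15b (WT), 0.36 for miR-107 and 1.20 for miR-15b (F182del), 3.52 for miR-16 and 0.79 for miR-107 (N359H), 0.95 for miR-15a (G604R), 2.51 for miR-103a, 0.0014 for miR-15a and 0.42 for miR-15b (D619N), and 1.22 for miR-107 and 0.065 for miR-15a over the 5 together. Interactions were -0.37 for miR-16, -1.75 for miR-15a and -0.28 for miR-15b (F182del), -0.27 for miR-103a and -0.23 for miR-15a (G604R), and -0.81 for miR-16 and -1.18 for miR-15a (D619N).

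As a share of mature miRNA reads, values with another sign were 0.13 for miR-16 (G604R IP), 0.0033 for miR-103a and 0.061 for miR-107 (F182del input), 0.12 for miR-103a and 0.056 for miR-107 (N359H input). In IP against input they were -0.11 for miR-16 (WT), -0.20 for miR-103a (F182del), -0.22 for miR-16 (G604R), -0.17 for miR-16 (D619N) and -0.11 for miR-16 over the 5 together, and as interactions -0.071 for miR-15b (F182del) and -0.067 for miR-16 (D619N). miR-16 in the G604R IP was 0.13 in 1 fit of all 5 AGO2 groups and 0.035 without number 1 of both groups, an alternative chosen after seeing the data. That alternative called 1 member in D619N, beside 25.5% of all tested miRNAs. miR-107 was 0.014 in 1 fit of all 6 groups (F182del input) and 0.011 with a pseudocount of 10 (D619N input), and the F182del interaction of miR-15b was -0.0024 with a pseudocount of 0.1.

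Over the 5 constructs together, the members called numbered 1 with a pseudocount of 0.1, a mean of at least 10 RPM, shares of mature miRNA reads or the replicate block, and 0 with a pseudocount of 10 or without N359H. Counting identical rows each, the mean Mir-15 share was 2.90% in AGO2 IPs, 3.25% in inputs and 2.84% in empty vector IPs, and that of Mir-103 was 0.55% in both AGO2 IPs and inputs.

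With each library left out, the members called ranged from 0 to 1 in IP for G604R and D619N, from 0 to 1 in IP against input for F182del, N359H and G604R, and from 1 to 2 over the 5 together. Where 1 was called, so were 7.44%, 23.6%, 24.6%, 10.2% and 7.92% of all tested miRNAs in the first 5 of these, in that order. Log2 fold changes whose sign changed ranged, in IP, from -1.62 to 1.26 for miR-15b (F182del) and from -0.14 to 0.084 for miR-16 (G604R). In the inputs they ranged from -0.85 to 0.50 for miR-15b, -0.25 to 0.13 for miR-103a and -0.44 to 0.42 for miR-107 (F182del), from -0.16 to 0.12 for miR-103a, -0.060 to 0.20 for miR-16 and -0.60 to 0.34 for miR-107 (N359H), from -0.067 to 0.17 for miR-16, -0.35 to 0.68 for miR-15a and -0.68 to 1.34 for miR-15b (G604R), from -0.072 to 0.12 for miR-16, -1.03 to 0.70 for miR-107 and -0.76 to 1.03 for miR-15b (D619N), and from -0.17 to 0.11 for miR-103a and -0.17 to 0.027 for miR-16 (empty vector). In IP against input they ranged from -2.09 to 0.28 for miR-15b, -1.15 to 0.21 for miR-107 and -0.0023 to 0.26 for miR-16 (WT), from -0.092 to 0.36 for miR-103a and -1.85 to 0.26 for miR-15b (F182del), from -0.15 to 0.23 for miR-16 (N359H), from -0.98 to 0.11 for miR-15a (G604R) and from -0.35 to 0.011 for miR-103a (D619N). Interactions ranged from -1.32 to 0.99 for miR-15a and -1.20 to 1.27 for miR-15b (F182del), from -0.21 to 0.18 for miR-103a and -0.33 to 0.017 for miR-16 (N359H), from -0.44 to 2.1 for miR-103a (G604R), and from -1.35 to 1.25 for miR-15a, -0.052 to 0.28 for miR-16 and -2.65 to 0.22 for miR-15b (D619N).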
